A study of Mus musculus with 6 samples.

Results

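The difference examined here is the effect of losing Bmi1 in multipotent progenitors (MPPs) minus its effect in hematopoietic stem cells (HSCs). It was taken from all 6 arrays of the study, 3 of HSCs and 3 of MPPs. Each array is a 2-colour Agilent expression array that was hybridised with wild-type (WT) RNA in the green Cy3 channel and Bmi1 knockout (KO) RNA of the same cell population in the red Cy5 channel. The RNA came from FACS-purified cells of C57BL6 mice aged 2 to 3 months, wild type or Bmi1 KO, and the labels call the 3 replicates of each population biological. They do not say which part of Bmi1 is deleted, which surface markers defined the sorts, or how many mice a sample holds. On each array the log2 ratio of KO over WT was formed, and for each probe the mean of the 3 HSC arrays was subtracted from the mean of the 3 MPP arrays. A positive difference therefore means that the KO/WT ratio was higher in MPPs, and a negative one that it was lower there. WT was always green and KO always red, so an error fixed to a dye and a probe is the same on all 6 arrays and cancels in this difference. Of the 55681 non-control probes, 44642 (80.2%) entered the comparison, each with signals well above background in 1 or more of the 4 cell groups, on all 3 of its arrays. Where a single value stands for a gene, 16488 named genes were counted, each through its brightest probe. Single genes chosen for the size of a probe's p-value are given at that probe, with their other probes beside it.

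Bmi1 is a subunit of Polycomb repressive complex 1 (PRC1), which ubiquitinates histone H2A and keeps developmental and cell cycle inhibitor genes silent. Its best known target is the Cdkn2a locus, which encodes p16Ink4a and p19Arf, and loss of Bmi1 is known to impair the self-renewal of HSCs. HSCs give rise to MPPs, which have lost long-term self-renewal but still form all blood lineages. Commitment to the B lineage passes from MPPs through lymphoid progenitors. The transcription factor Ebf1 starts the B cell programme there, Pax5 fixes it, and both switch on the parts of the pre-B cell receptor.

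Of 32 gene lists examined, the B lineage list had the median difference farthest from 0. Of 20 B lineage genes measured, 18 had a positive difference, with a median of 1.53 on the log2 scale. Over all genes it was 7901 of 16488 (47.9%), with a median of -0.029. The B lineage median was 0.721 when MPP 1 alone was set against the 3 HSC arrays. Lists and members were chosen with earlier results of these data known, so the place of this list and its counts are a description. Ebf1, at a difference of 4.41 ± 0.92 (SE), ranked at position 1 of the 16488 genes, with a WT signal in HSCs well above background on 1 of 3 arrays, and 6 of the 10 genes with the largest positive differences were on the B lineage list. No single probe passed the test after adjustment in limma: 0 of 44642 (0%) had a Benjamini-Hochberg adjusted p under 0.05, and the smallest adjusted p was 0.968. Without adjustment 1854 probes had a limma p under 0.05, of which 756 (1.69% of all probes) had a higher ratio in MPPs and 1098 (2.46%) a lower one. Every gene difference given in the following had a limma adjusted p of 0.968 or more and is a description. An exact permutation test of 3 arrays against 3 cannot go below p = 0.10. Errors after ± are standard errors of the difference unless called SD.

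**Figure D1:**
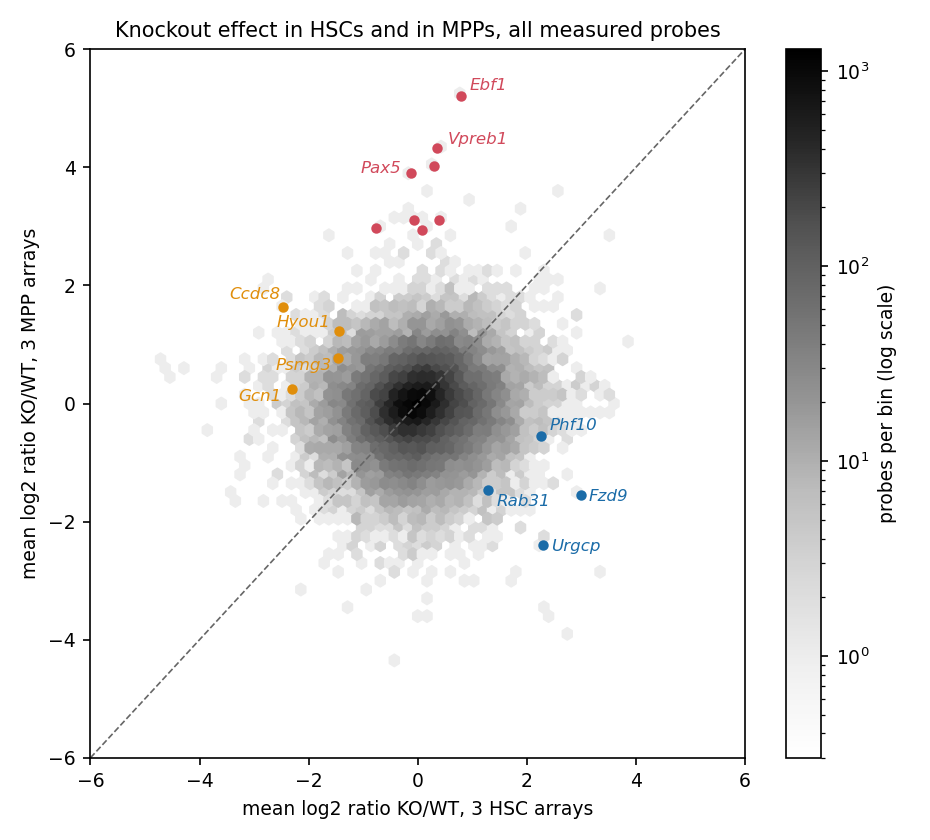
Mean log2 KO/WT ratio of the 3 HSC arrays (x axis) against that of the 3 MPP arrays (y axis) for 44642 probes, shaded by the number of probes per bin on a log scale, with a dashed line at equal effects. The B lineage genes drawn with a difference over 2.5 (red) lie between -0.757 and 0.798 on the HSC axis and between 2.95 and 5.20 on the MPP axis, while other genes named in the text (orange, blue) lie to the upper left and lower right.

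The spread between replicates set the precision. The median standard error of the difference was 0.533. Over 325 probes printed in 3 or more spots, the median SD between spots of an array was 0.099, while the SD between arrays was 0.875 for HSCs and 0.619 for MPPs. The KO/WT ratios of replicate arrays hardly correlated across probes: Pearson's r ran from -0.070 to 0.080 between HSC arrays and from -0.013 to 0.195 between MPP arrays, as a description over probes. The share of probes with an unadjusted p under 0.05 was 2.69% in the dimmest of 4 brightness classes, 4.90% and 5.82% in the middle ones and 3.20% in the brightest. All 6 arrays lay on 1 slide and were scanned together. The 3 HSC arrays and MPP 1 lay in the first slide row and MPP 2 and MPP 3 in the second, so a row effect can be told apart from the population only through MPP 1.

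Of 29 HSC marker genes measured, 27 were well above background in at least 2 of 3 arrays of every group, as were 14995 (90.9%) of all 16488 genes, so that this count does not set the list apart. The median over them of the log2 level in MPPs minus that in HSCs was -0.80 in the WT channel and -1.27 in the KO channel. For 25 genes of MPPs and lymphoid priming the same medians were 0.84 and 0.98. The median difference of the KO/WT ratio was -0.28 for the HSC list and -0.14 for the MPP list.

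The targeted gene gave no firm difference. For Bmi1 (chr2:18607531-18607590 in mm9, the build of the probe positions) the log2 KO/WT ratios were -0.394, -2.42 and -0.502 in HSCs 1 to 3 and 0.229, -0.689 and 0.481 in MPPs 1 to 3. The ranges overlapped, and the difference was 1.11 ± 0.66, and 0.59 at its other probe. The labels do not say whether a probe lies in the deleted part, so these values check neither genotype. Cdkn2a, the classical Bmi1 target, had ratios of 0.305, -0.323 and -2.82 in HSCs and 1.74, 0.610 and 1.19 in MPPs. All 3 MPP values were above all 3 HSC values, with a difference of 2.13 ± 0.85. A dimmer probe of the gene gave 1.36 ± 0.83, but there HSC 2, at 0.858, lay above MPP 2, at 0.543. At this dimmer probe WT RNA cleared the background on 1 of 3 HSC arrays and 0 of 3 MPP arrays. Its MPP ratio thus has no measured base. The WT and KO signals of the brighter probe were well above background on 2 of 3 HSC arrays in each channel. HSC 3 had the lowest ratio, and without it the difference was 1.19. Cdkn2b, which encodes p15Ink4b, was not well above background in WT HSCs on any array, so its HSC ratio has no measured base. The fitted difference was -0.16 ± 0.89. Cdkn2d, which encodes p19Ink4d, had ratios of 0.937, -3.34 and -3.87 in HSCs and 0.060, 2.06 and 1.99 in MPPs. HSC 1 lay within the MPP range, and the difference was 3.46 ± 1.35. In WT MPPs it cleared the background on 1 of 3 arrays. The list of Ink4 and Cip/Kip inhibitors also held Mtap, which is not an inhibitor and had a difference of 0.15. Over all 8 genes of this list, 4 had a positive difference, Mtap among them, and the median was -0.037. Without Cdkn2b the median of the other 7 was 0.087, so its sign rests on 1 gene. Those 7 still hold Cdkn2c, with WT HSC signals well above background on 0 of 3 arrays.

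The B lineage genes are described first through the genes that the array measured at separate sites. Of the B lineage genes measured, 8 had at least 2 kept probes, and 6 of the 8 had a positive difference at every probe. Only Pax5, Rag1, Cd79a and Lef1, with 2 kept probes each, had a positive difference with an unadjusted p under 0.05 at both. This held for 10 (0.201%) of the 4979 genes with at least 2 kept probes in the positive direction and for 13 (0.261%) in the negative direction. With every probe well above background on at least 2 of 3 arrays of every group, 7 and 11 genes were left, and Rag1 was not among the 7, since its dimmer probe had no WT signal above background in HSCs. Over those 4979 genes, all probes had the same sign in 2597 (52.2%). To show which sites were read, the first 30 bases of each 60-base probe are printed 5′ to 3′ as deposited, with mm9 positions. Coordinates wider than the probe span an intron or introns.
Pax5, probe at chr4:44658421-44658480: gtttgagagacagcactactctgacatctt
Pax5, probe at chr4:44550354-44582908: ctactctgcaccgacgctgacagggatggt
Rag1, probe at chr2:101478813-101478872: agttgtttgatgcatgtgtatgccattaga
Rag1, probe at chr2:101481051-101481110: ggtgtcataaatttttcaataatgaagtta
Cd79a, probe at chr7:25684357-25684614: tagaaaacaacatattaaaacgctcctgtg
Cd79a, probe at chr7:25686823-25686882: cctcctcccagatctgtcatggccacttaa
Lef1, probe at chr3:130907851-130926012: gtacaggtcccagaatgacagctgcctaca
Lef1, probe at chr3:130926200-130926259: actgcaagcgccgacttccaaaaagaaagc
The probes of a pair lay 75513 bases apart for Pax5, 2179 for Rag1, 2209 for Cd79a and 188 for Lef1, counted between their nearest ends, and shared no bases.

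Of the B lineage transcription factors, Ebf1 (chr11:44818438-44818497) had log2 KO/WT ratios of 0.577, -0.114 and 1.93 in HSCs and 3.39, 5.84 and 6.38 in MPPs. Every MPP array lay above every HSC array. The WT signal of Ebf1 in HSCs was well above background on 1 of 3 arrays, and in the other groups on all 3. Pax5, the commitment factor of B cells, had ratios of 0.222, -0.299 and -0.296 in HSCs and 3.24, 5.36 and 3.14 in MPPs at its brighter probe. The groups did not overlap, and the difference was 4.04 ± 0.66. Its other probe gave -0.205, -0.135 and -0.650 in HSCs against 1.04, 1.56 and 3.09 in MPPs, a difference of 2.23 ± 0.58. Lef1, a transcription factor of Wnt signalling that pro-B cells use, had ratios of 0.038, -0.123 and -0.131 in HSCs and 1.58, 2.85 and 4.89 in MPPs. The HSC ratios had an SD of 0.095, at low mean log2 levels of 7.41 in WT and 7.33 in KO HSCs. The difference was 3.18 ± 0.82, and 1.09 ± 0.34 at the other probe. Pou2af1, a coactivator of B cell genes, had MPP ratios of -0.316, 2.11 and 2.24 and a difference of 1.43 ± 0.74, which was -0.235 within the first slide row. Foxo1, which acts upstream of Rag1 and Rag2, had a difference of -0.43 and of 0.72 at its other probe, with HSC ratios of 0.322, -0.110 and 3.85.

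Of the pre-B cell receptor and its signalling chain, Vpreb1 (chr16:16868559-16868618) and Igll1 (chr16:16861104-16861163) encode the surrogate light chain. Vpreb1 had ratios of 0.666, 0.925 and -0.521 in HSCs and 1.60, 4.90 and 6.49 in MPPs, a difference of 3.98 ± 1.23. Igll1 had ratios of -0.333, -0.060 and 1.27 in HSCs and 2.44, 5.15 and 4.50 in MPPs, a difference of 3.74 ± 0.81. Neither gene's groups overlapped, and MPP 1 was the lowest MPP array for both. Vpreb2, a near copy of Vpreb1, had ratios of 1.05, 0.003 and -0.797 in HSCs and 0.771, 3.21 and 4.86 in MPPs. Its MPP 1 value lay below HSC 1. The difference was 2.86 ± 1.07. The Vpreb1 and Vpreb2 probes matched at 23 of 59 aligned bases without gaps, so the 2 probe sequences differ. Whether either probe also binds the transcript of the other gene was not tested. Cd79a, the signalling chain Igα, had ratios of -1.89, -0.424 and 0.047 in HSCs and 1.18, 2.56 and 5.19 in MPPs. Its probes gave differences of 3.73 ± 1.08 and 2.36 ± 0.62. Cd79b, its partner Igβ, had overlapping ranges and a difference of 0.83, with HSC 2 at 2.12 and HSC 3 at -1.68.

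Of the surface and recombination genes, Rag1, the recombinase that cuts immunoglobulin genes, had ratios of -0.055, 0.384 and 0.856 in HSCs and 1.37, 4.02 and 3.95 in MPPs, a difference of 2.72 ± 0.78. The other Rag1 probe gave 2.33 ± 0.59, with WT HSC signals not well above background on any array, so that its HSC ratio has no measured base. Rag2, its partner, had no signal well above background in HSCs in either channel, and its MPP ratios were 0.447, 2.55 and 2.25. Blk, a B cell tyrosine kinase, had MPP ratios of 0.0998, 1.11 and 1.58 and a difference of 1.11 ± 0.48. Dntt, the template-free polymerase of early lymphoid progenitors, had overlapping ranges and a difference of 0.65. The 6 immunoglobulin chain probes measured had a median difference of 0.080, and Igkc, the kappa constant region, gave 0.42.

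**Figure D2:**
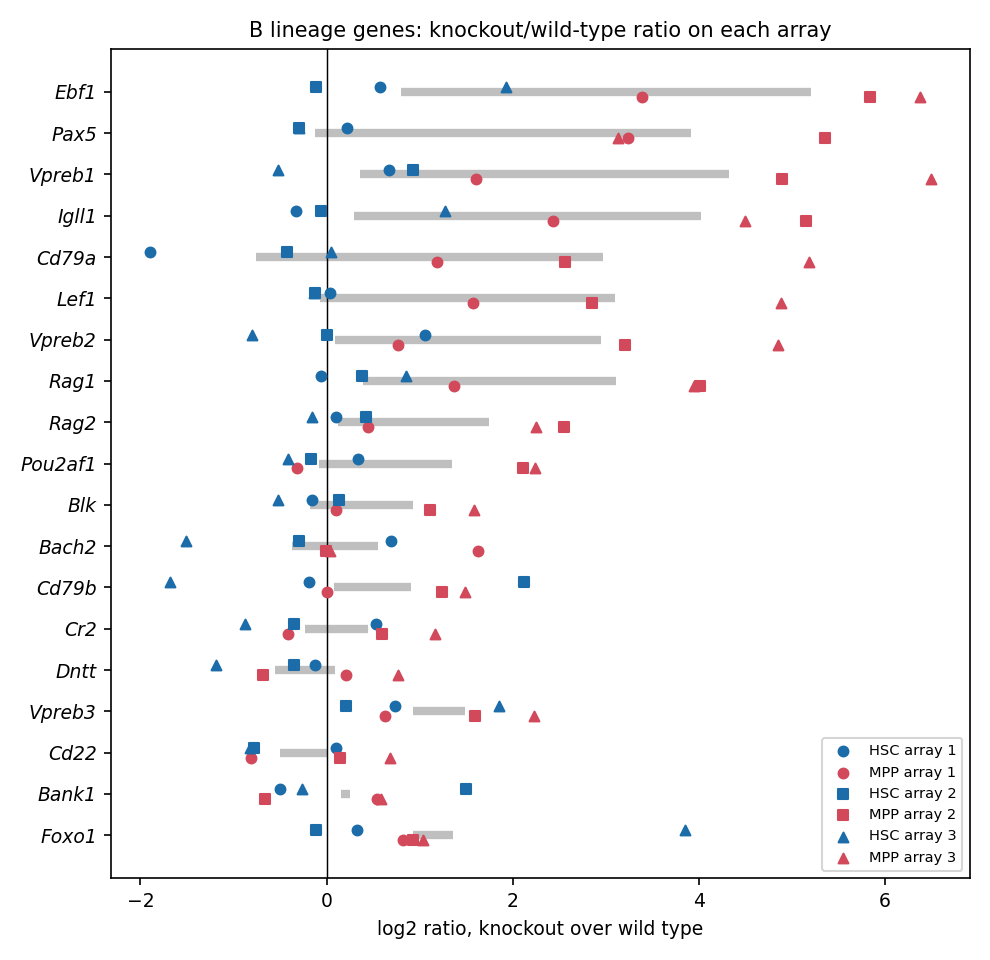
Log2 KO/WT ratio (x axis) of B lineage genes, on each of 3 HSC arrays (blue) and 3 MPP arrays (red), with a grey bar from the HSC mean to the MPP mean. From Ebf1 down to Rag1 the MPP arrays sit to the right, except for Vpreb2, whose MPP 1 lies left of HSC 1. MPP 1 is usually the leftmost MPP array, and from Bach2 down the colours mix.

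Counted over the list, 10 of the 20 genes had an unadjusted p under 0.05 and a positive difference, and 0 had a negative one, against 286 (1.73%) and 474 (2.87%) of all 16488 genes, shares that also stand behind each such count over a gene list in the following. In 9 of the 20 genes all MPP values lay above all HSC values, and in 0 all lay below, against 618 (3.75%) and 775 (4.7%) of all genes. Ebf1 and Rag2, with WT HSC signals above background on 1 and 0 of 3 arrays, are in both counts, and without them they were 8 and 7. The median ratio of the list was 0.108, -0.112 and -0.357 on HSC arrays 1 to 3 and 0.795, 2.33 and 2.24 on MPP arrays 1 to 3. MPP 1 was thus apart from the other MPP arrays, and it was the lowest MPP array for 16 of 20 genes. With the first slide row alone, MPP 1 against the 3 HSC arrays, the list's median was 0.721 and 3 genes had an unadjusted p under 0.05, where the HSC arrays alone supply the spread and MPP 1 is assumed to vary like them. Within that row the difference was 3.37 for Pax5, 2.59 for Ebf1 and 2.15 for Igll1, and it was 0.972 for Rag1. Without MPP 1 the median was 2.27. These RNAs were extracted from pools of cells, in which more cells of a type and more RNA per cell cannot be told apart.

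Taken by channel, the B lineage difference was larger in the KO channel. KO was always red and WT always green, so genotype and dye cannot be told apart in this split. Median raw signals of the arrays ran from 379 to 581 in red and from 124 to 206 in green. For a channel, the level of a gene in MPPs was compared with its level in HSCs within 1 dye, after quantile normalisation of the average intensities between arrays. Over the 20 B lineage genes the median of MPP minus HSC was 2.54 in the KO channel and 0.44 in the WT channel, and the KO change was larger in size for 17 of 20 genes (85%). Over all kept probes it was larger for 41%. Ebf1 had a log2 level of 6.67 ± 0.36 (SD, n = 3) in WT HSCs and 7.60 ± 0.38 in WT MPPs, against 7.47 ± 1.099 in KO HSCs and 12.8 ± 1.27 in KO MPPs. For Pax5 the level was 9.10 ± 0.41 and 9.46 ± 1.33 in WT HSCs and MPPs and 8.97 ± 0.33 and 13.4 ± 0.95 in KO HSCs and MPPs. In both genes each KO MPP array lay above all 3 arrays of KO HSCs. Mean WT HSC levels of Vpreb1, Rag1 and Igll1, at 7.15, 7.15 and 7.46, were low beside that of Pax5. Cd79a and Dntt were higher in MPPs than in HSCs in WT cells too, by 2.35 and 2.83, against 6.08 and 3.48 in KO cells.

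**Figure D3:**
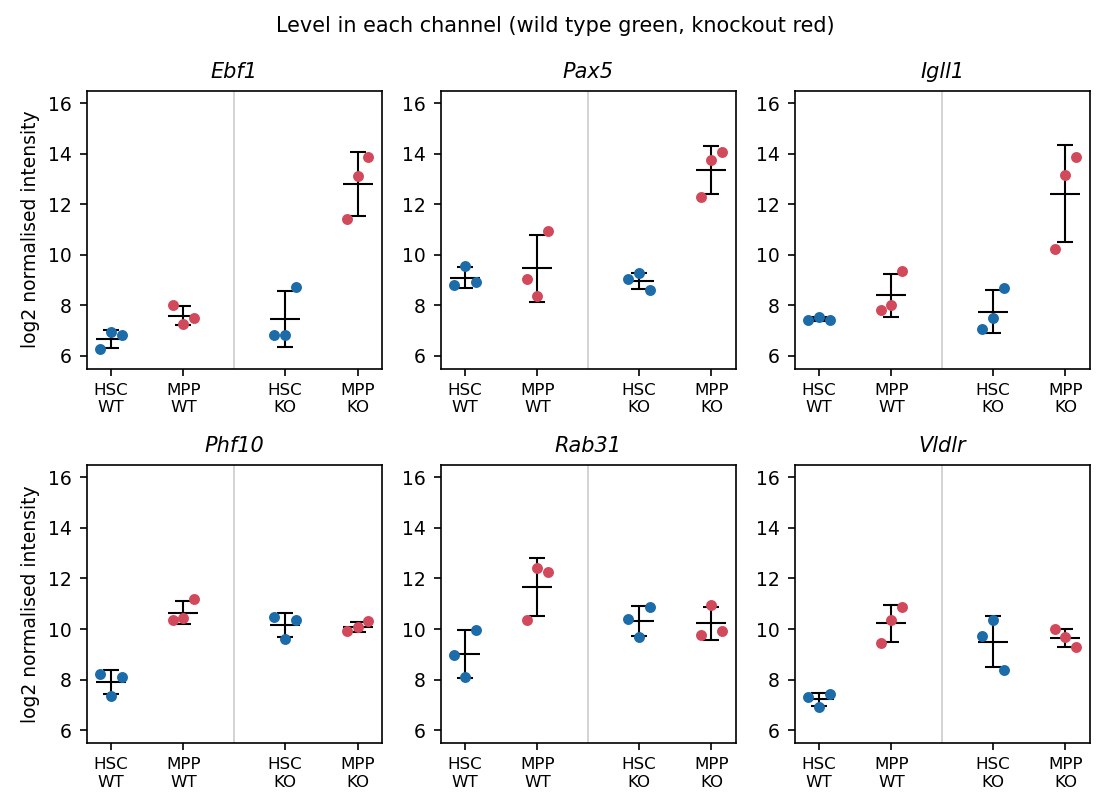
Log2 normalised intensity (y axis) of 6 genes in HSCs (blue) and MPPs (red), for the WT channel (green dye, left pair) and the KO channel (red dye, right pair), each point being 1 array and the bars mean ± SD over 3 arrays. Ebf1, Pax5 and Igll1 have their highest levels on the KO MPP arrays, while Phf10, Rab31 and Vldlr have their lowest mean in WT HSCs.

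The regions upstream of B lineage genes that had a large difference are shown because these genes are known to share regulators, among them E proteins that bind E boxes. In the RefSeq promoter table for GRCm38.p6, a build other than that of the probes, 17 of the 20 genes had an entry. The 250 bases before the start were searched for CAGGTG and its reverse complement CACCTG and for the palindrome CAGCTG, which covers both strands. A match was found in 9 of the 17 genes (52.9%) and in 8263 of 27025 genes of the table (30.6%), or 9113 of 32851 windows (27.7%). The 17 genes were taken whatever the size of their difference, and the 9 include genes with small differences. A link between a match and the size of the difference was not tested. A match describes letters and is not a bound site. The windows of Cd79a, Igll1 and Vpreb1 hold 1, 2 and 1 matches, in capitals.
Cd79a, chr7:24897247-24897496, plus strand: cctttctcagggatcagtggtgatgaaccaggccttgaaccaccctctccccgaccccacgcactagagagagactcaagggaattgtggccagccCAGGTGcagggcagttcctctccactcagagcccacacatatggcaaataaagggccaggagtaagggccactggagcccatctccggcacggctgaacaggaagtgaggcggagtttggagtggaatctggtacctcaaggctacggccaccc
Igll1, chr16:16863986-16864235, minus strand: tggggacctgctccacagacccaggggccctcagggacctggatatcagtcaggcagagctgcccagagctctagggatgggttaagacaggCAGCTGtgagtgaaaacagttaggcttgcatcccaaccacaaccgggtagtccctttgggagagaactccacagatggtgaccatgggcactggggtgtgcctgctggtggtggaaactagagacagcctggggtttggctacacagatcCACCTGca
Vpreb1, chr16:16869256-16869505, minus strand: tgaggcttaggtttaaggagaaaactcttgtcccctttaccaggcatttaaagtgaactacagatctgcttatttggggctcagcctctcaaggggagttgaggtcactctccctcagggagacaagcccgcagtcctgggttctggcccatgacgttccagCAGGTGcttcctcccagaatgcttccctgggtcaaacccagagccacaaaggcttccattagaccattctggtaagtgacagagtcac
Ebf1 and Pax5, which had larger differences than Cd79a, held no match in their windows.

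Among other genes with a higher KO/WT ratio in MPPs, those with the smallest p-values were mostly below 0 in HSCs and above 0 in MPPs. Psmg3, an assembly chaperone of the proteasome, had ratios of -1.48, -1.37 and -1.51 in HSCs and 0.632, 0.977 and 0.715 in MPPs. The SDs were 0.072 and 0.18, and the difference was 2.23 ± 0.31. Hyou1, a chaperone of the endoplasmic reticulum that the unfolded protein response induces, had ratios of -1.03, -1.90 and -1.38 in HSCs and 1.69, 1.43 and 0.571 in MPPs. The signs were opposite on all arrays, and the difference was 2.67 ± 0.45. Its level was 11.3 ± 0.98 (SD, n = 3) in WT HSCs, 10.2 ± 0.91 in WT MPPs, 9.84 ± 0.97 in KO HSCs and 11.4 ± 0.37 in KO MPPs. Gcn1, which activates the kinase Gcn2 on amino acid shortage, had ratios of -2.03, -2.63 and -2.23 in HSCs and -0.004, 1.04 and -0.286 in MPPs. The difference was 2.55 ± 0.46, and its other probe gave 0.69 ± 0.60. Of the 32 genes of the unfolded protein and integrated stress responses, 18 had a positive difference, with a median of 0.10, and 2 had an unadjusted p under 0.05, which were Hyou1 and Gcn1.

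Bcat1, which transfers amino groups from branched-chain amino acids, had ratios of 0.262, 0.080 and 0.110 in HSCs and 1.78, 2.19 and 2.91 in MPPs. Its difference was 2.14 ± 0.40 at this probe, while its brightest probe gave 1.08 and the third 0.095. Ccdc8, a partner of the cullin Cul7, had ratios of -0.931, -3.46 and -2.998 in HSCs and 1.41, 2.404 and 1.08 in MPPs. The signs were opposite at both of its probes, with differences of 4.09 ± 0.75 and, at the brighter one, 2.16 ± 0.48. Mtbp, an Mdm2-binding protein of replication origin firing, had a difference of 3.23 ± 0.60. Tmcc2 had a difference of 3.77 ± 0.68, Thumpd1, a tRNA acetylation cofactor, of 2.98 ± 0.62 (1.19 at its other probe), and the olfactory receptor gene Olfr714 of 3.49 ± 0.69. Fam20b, a xylose kinase of proteoglycan synthesis, had 3.06 ± 0.63 at this probe and -1.36 at its brighter one, so its probes disagreed in sign. Grk2, a kinase of G protein-coupled receptors, and Atg7, an enzyme of autophagy, had negative ratios on all HSC arrays and positive ones on all MPP arrays, with differences of 2.01 and 2.25. Atg7 gave -0.16 at its other probe. Opposite signs of this kind were found for 406 probes (0.909%).

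The genes plotted with the smallest p-values and a lower KO/WT ratio in MPPs had positive ratios on all HSC arrays. Phf10, which belongs to the chromatin remodeller PBAF, had ratios of 2.26, 2.28 and 2.23 in HSCs and -0.431, -0.359 and -0.874 in MPPs. The SD over the HSC arrays was 0.027, and the difference of -2.81 ± 0.32 had the smallest unadjusted p of all probes (limma adjusted p = 0.968). Its log2 level was 7.89 ± 0.49 (SD, n = 3) in WT HSCs, 10.65 ± 0.47 in WT MPPs, 10.1 ± 0.47 in KO HSCs and 10.1 ± 0.20 in KO MPPs. WT HSCs had the lowest level of the 4 groups, and the others lay close together. Over the 27 BAF and PBAF genes, 12 had a positive difference and the median was -0.13. Rab3a, a GTPase of vesicle release, had ratios of 2.45, 1.696 and 1.45 in HSCs and -1.44, -1.79 and -0.467 in MPPs, a difference of -3.10 ± 0.49. Urgcp had ratios of 1.61, 3.04 and 2.24 in HSCs and -0.980, -2.54 and -3.68 in MPPs, a difference of -4.70 ± 0.76, against -0.72 at its other probe. Both genes had opposite signs on all arrays.

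Rab31, a GTPase of endosomal transport, had ratios of 1.39, 1.60 and 0.895 in HSCs and -0.581, -1.47 and -2.32 in MPPs, a difference of -2.75 ± 0.52. Its level in WT cells was 9.02 ± 0.94 (SD, n = 3) in HSCs and 11.7 ± 1.15 in MPPs, and in KO cells 10.3 ± 0.59 and 10.2 ± 0.64. Fzd9, a Wnt receptor, had ratios of 2.22, 3.44 and 3.31 in HSCs and -0.285, -0.765 and -3.60 in MPPs, a difference of -4.54 ± 0.92. Ifngr1, the ligand-binding chain of the interferon gamma receptor, had a difference of -2.05 ± 0.40. Klc4, a kinesin light chain, Scamp1, a membrane protein of secretory vesicles, and Slc6a13, a GABA transporter, had differences of -2.86, -2.26 and -2.30. Acad12 had -2.17, and Cinp, a cyclin-dependent kinase 2 interactor, had -3.02. The values of Klc4, Acad12 and Cinp are those of the dimmer of 2 probes, and their brighter probes gave -0.93, -1.20 and -0.62, without opposite signs. Scamp1 gave -0.036 at its dimmer probe. Of those 5 genes, Klc4, Scamp1, Slc6a13 and Acad12 had opposite signs on all arrays at the probes named first, as did 518 probes (1.16%) in this direction. Krtcap2, a subunit of the oligosaccharyltransferase, Hsf2, a heat shock transcription factor, Tmem170 and Armc9 also had opposite signs, with differences of -4.11, -3.42, -2.89 and -2.02. Rhobtb3 had -2.97 at this probe and 1.22 at its brighter one, and Armc9 had 0.50 at its other probe.

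**Figure D4:**
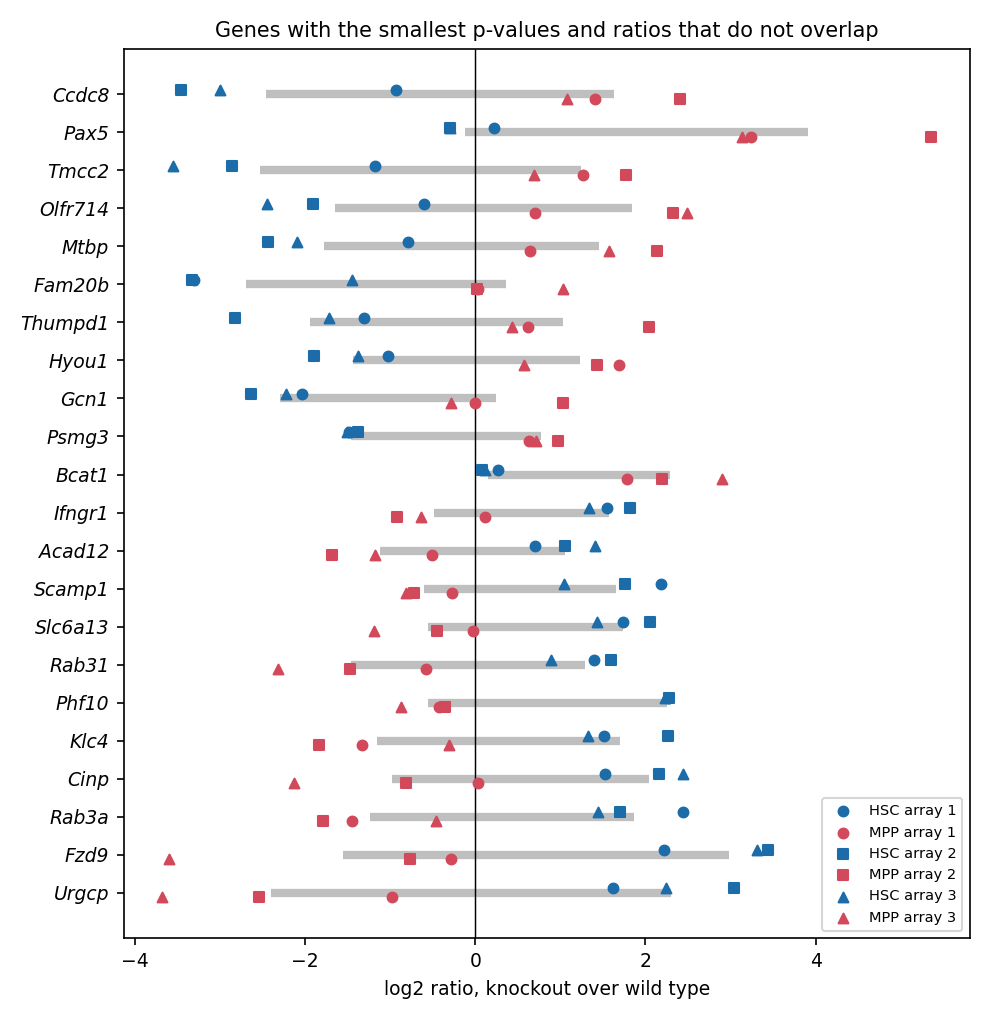
Log2 KO/WT ratio (x axis) on each of 3 HSC arrays (blue) and 3 MPP arrays (red) for genes of each direction with the smallest unadjusted limma p among those with ratios that do not overlap, with a grey bar from the HSC mean to the MPP mean. HSC ratios of Psmg3 and Phf10 nearly coincide between replicates, and the HSC arrays of the lower genes lie right of 0, while those of the upper genes lie left of it except for Pax5 and Bcat1.

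Ratios that did not overlap between the populations were found for 1763 probes (3.95%) in the positive and 1995 (4.47%) in the negative direction. By channel, probes with an unadjusted p under 0.05 looked unlike the B lineage genes. Among the 1098 probes with an unadjusted p under 0.05 and a lower ratio in MPPs, the median of MPP minus HSC was 1.25 in the WT channel and -0.55 in the KO channel, and the KO change was the larger in 345 (31.4%). Among the 756 with a higher ratio, the medians were -0.97 and 0.70, and the KO change was the larger in 332 (43.9%). The median KO/WT ratios were -1.01 in HSCs and 0.65 in MPPs for the probes with higher ratios in MPPs, and 1.01 and -0.75 for those with lower ones. Since these probes were picked by the same values, their medians are a description.

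Genes with a lower ratio at both of 2 probes included several that were higher in WT MPPs than in WT HSCs and level in KO cells. Pigv, a mannosyltransferase of GPI anchor synthesis, had differences of -2.72 and -1.99, with MPP minus HSC at 2.74 in WT and 0.016 in KO cells for the brighter probe. Vldlr, a lipoprotein and reelin receptor, had -2.83 and -2.01, with 3.00 in WT and 0.17 in KO cells. WT HSC signals of Vldlr were well above background on 2 of 3 arrays, and at the other probe on 1. Copg2, a subunit of the COPI vesicle coat, had -2.77 and -2.43, with 2.64 in WT and -0.14 in KO cells. The same direction at both probes was found for Gch1 (-2.81 and -1.40), the first enzyme of tetrahydrobiopterin synthesis, which WT HSCs gave well above background on 1 of 3 arrays. It was also found for Acer2 (-2.50 and -2.34), an alkaline ceramidase, and Mff (-1.49 and -2.88), a receptor of mitochondrial fission. Dvl2, a Wnt signal transducer, Mkrn1, a ubiquitin ligase, Asb1 and Tatdn3 completed the 10 named. In the positive direction, beside Ccdc8 and the 4 B lineage genes, they were Ints11, the nuclease of the Integrator complex (1.14 and 1.91), Gcsh of the glycine cleavage system (1.098 and 2.34), Apold1 (1.40 and 1.97), Raet1c, an NKG2D ligand (1.60 and 1.38), and the olfactory receptor gene Olfr50 (1.72 and 1.01). The second probe of Raet1c was not well above background on any HSC array in either channel, so its HSC ratio was not measured. The positions of the 2 probes overlap for Raet1c, Olfr50, Mff and Tatdn3, which are thus not separate sites.

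Polycomb genes other than Bmi1 had small differences as a group. Of 25 genes of PRC1 and its variants without Bmi1, 10 had a positive difference and the median was -0.20. Pcgf1, the Bmi1 paralog of variant PRC1.1, had ratios of -1.59, -3.60 and -1.11 in HSCs and 0.898, 0.904 and 0.263 in MPPs, a difference of 2.79 ± 0.69. Pcgf2, also called Mel18 and the closest Bmi1 paralog, had ratios of 0.629, 1.79 and 2.09 in HSCs and -0.303, 0.113 and -0.156 in MPPs, a difference of -1.62 ± 0.47, and 0.032 at its other probe. Both were without overlap between the populations, in opposite directions. Cbx2, a chromobox subunit, had 0.99 ± 0.42. The 12 PRC2 genes had a median of -0.22, with 0 at an unadjusted p under 0.05, and the 26 Hox genes a median of -0.047, with 0. Of 9 genes next to Bmi1 on chromosome 2, Pip4k2a had a difference of 1.22 ± 0.43, and the median was -0.080.

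Of the other blood cell marker lists, the erythroid and the basophil lists had the medians farthest from 0. Of 20 erythroid genes, 14 had a positive difference, with a median of 0.80, and 2 had an unadjusted p under 0.05 in that direction, against 286 (1.73%) of all 16488 genes. Hbb-bt, a beta globin, had ratios of 0.298, -1.43 and -0.675 in HSCs and 2.14, 2.96 and 0.514 in MPPs, and Tfrc, the transferrin receptor, had a difference of 1.95 ± 0.73, with 1.28 and -0.082 at its other probes. Slc4a1, the anion exchanger band 3, had 2.70 ± 1.16, while Epor, the erythropoietin receptor, had -0.94 ± 0.37. The erythroid median was -0.191, 0.347 and 1.14 on MPP arrays 1 to 3 and 0.187, 0.165 and -0.747 on HSC arrays, so that MPP 3 and HSC 3 were the extremes. The median difference was 0.393 without HSC 3, 0.384 without MPP 3 and 0.188 within the first slide row.

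Of 18 genes of basophils, mast cells and eosinophils, 4 had a positive difference, and the median was -0.99. Its members went both ways. The 4 positive ones included the mast cell proteases Cma1 and Mcpt2, with differences of 2.79 ± 0.69 and 1.59 ± 0.63, both without overlap. Mcpt2 was dim, with mean log2 levels of 6.86 in WT HSCs, 6.66 in KO HSCs and 7.12 in WT MPPs. Its MPP 3 ratio was 0.023. Mcpt8, a basophil protease, had ratios of 0.006, 3.97 and 3.42 in HSCs and 0.080, -0.394 and -1.13 in MPPs, a difference of -2.95 ± 1.06. The eosinophil genes Ear1 and Epx had -3.03 and -2.33, and WT HSC signals of Ear1 were well above background on 1 of 3 arrays. The list's median ratio was 0.041, 0.025 and 1.15 on the HSC arrays and 0.148, -0.010 and -0.979 on the MPP arrays. HSC 3 and MPP 3 were again apart from the others. The median difference was -0.388 without HSC 3, -0.649 without MPP 3 and -0.205 within the first slide row.

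Medians of 0.045 for 20 T and NK cell genes, -0.003 for 16 neutrophil granule genes, -0.24 for 17 monocyte and dendritic genes, 0.13 for 19 megakaryocyte genes, 0.26 for 12 stromal and endothelial genes and 0.067 for 10 MHC class II genes lay closer to that of all genes. Cd28, a T cell costimulator, had opposite signs on all arrays and a difference of 2.39 ± 0.74. Vwf, which marks megakaryocytes and platelet-biased HSCs, had ratios of 1.34, 2.44 and 0.627 in HSCs and 0.103, -0.553 and -0.431 in MPPs, a difference of -1.76 ± 0.54, against 0.42 at its other probe. Among lymphoid priming genes, Satb1, a chromatin organiser, had a difference of -2.03 ± 0.84. Satb1 was higher in MPPs than in HSCs by 5.55 in WT and by 3.52 in KO cells. In WT HSCs it was well above background on 2 of 3 arrays. Lyz1, lysozyme, and Adgre1, the macrophage antigen F4/80, had -1.78 and 1.28, in opposite directions.

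**Figure D5:**
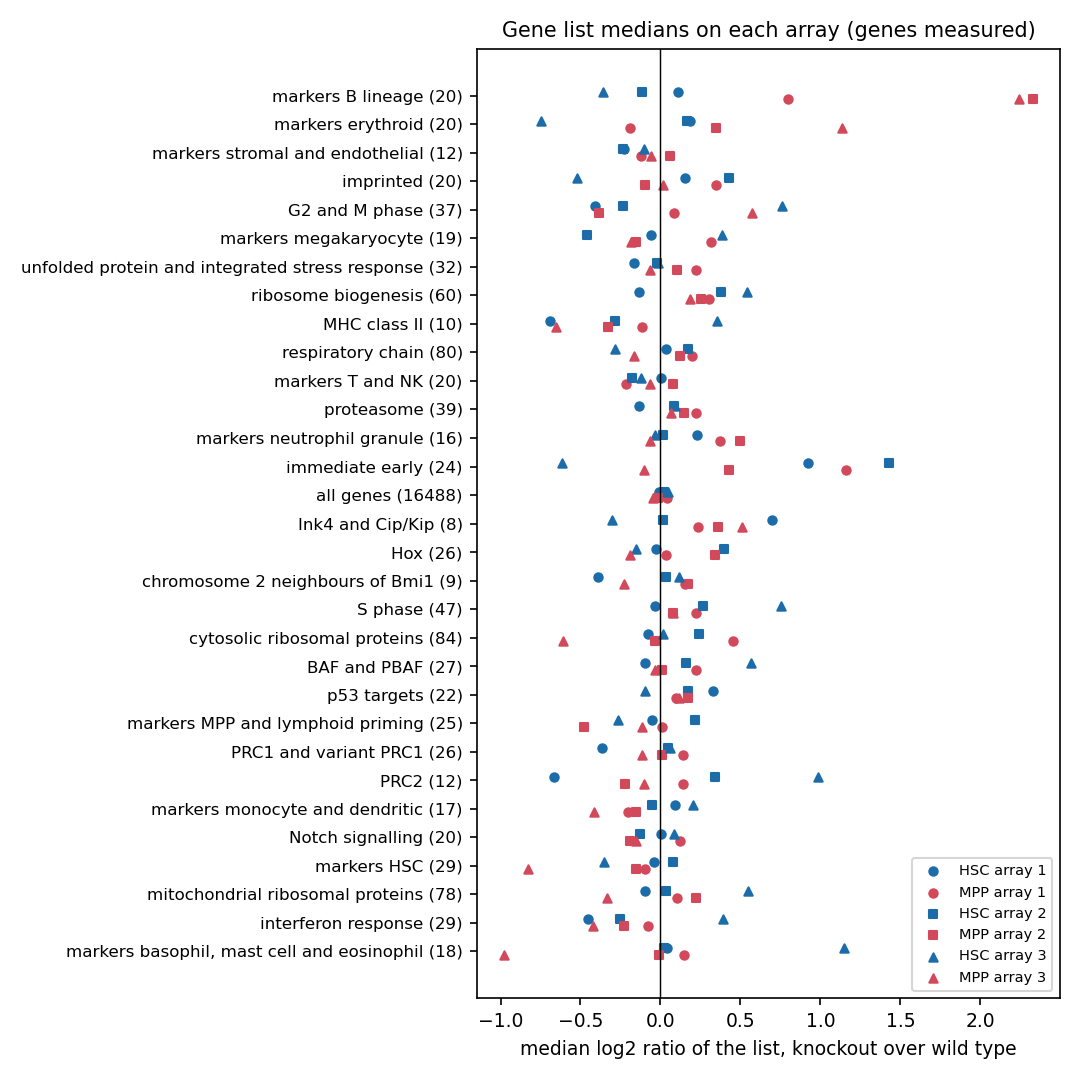
Median log2 KO/WT ratio (x axis) of each gene list with at least 8 genes measured (number in brackets), on each of 3 HSC arrays (blue) and 3 MPP arrays (red), ordered by the median difference of the genes. The B lineage list alone has MPP 2 and MPP 3 beyond 2, at 2.33 and 2.24, and in most other lists the colours mix around 0.

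Genes of the mitochondrion went both ways. Of 78 mitochondrial ribosomal proteins, 31 had a positive difference, with a median of -0.32, and 5 had an unadjusted p under 0.05 in the negative and 2 in the positive direction, against 2.87% and 1.73% of all genes, so that the positive count lies near the background. Mrps5 (-2.29), Mrps34 (-2.19) and Mrpl32 (-1.53) had ranges in HSCs of -0.041 to 2.57, 0.034 to 1.83 and 0.598 to 2.27. Mrpl3 had ratios of 1.76, 2.24 and 1.91 in HSCs and 0.763, 1.03 and 0.294 in MPPs, with WT HSC signals that cleared the background on 1 of 3 arrays. The 80 respiratory chain genes had a median of 0.049, with 3 genes in each direction. Cox6a1 and Cox5a, subunits of cytochrome c oxidase, had differences of 2.99 ± 0.62 and 2.28 ± 0.65. Uqcr10, a subunit of complex III, had ratios of -1.13, -2.16 and -2.63 in HSCs and -0.096, 0.300 and -0.111 in MPPs. The difference was 2.00 ± 0.47 at this probe. Its other probes gave 1.93 ± 1.75 and 1.995 ± 1.67, with errors nearly as large as the values. Ndufs4, a subunit of complex I, had -2.09 ± 0.85. Cytosolic ribosomal proteins, 84 in all, had a median of -0.12 and 0 genes at an unadjusted p under 0.05 in either direction.

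Growth, stress and cycle lists stayed near the median of all genes. The 60 ribosome biogenesis genes had a median of 0.089, with 2 genes in each direction. Heatr1 and Utp20, of the small subunit processome, had opposite signs with differences of 1.95 and 1.504, Nop14 of the same complex had -1.09, and Rrs1 had -2.73 with 1 of 3 WT HSC signals above background. The 39 proteasome genes had a median of 0.008. Psma3 and Psma1, alpha ring subunits, had 1.04 ± 0.33 and -0.96 ± 0.34, with opposite signs on all arrays and in opposite directions. The 47 S phase and 37 G2 and M phase genes had medians of -0.091 and 0.13. Cdt1, which licenses replication origins, had a difference of -2.70 ± 0.90, and Aurka, a mitotic kinase, of -2.49 ± 0.91, with 1 of 3 WT HSC signals above background. Among 22 p53 targets the median was -0.14, with Ddit4, an inhibitor of mTORC1, at -3.30 ± 0.76, Ei24 at -2.39 and Ckap2 at 3.21.

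In the remaining lists at most 1 gene in each direction had an unadjusted p under 0.05. Of 24 immediate early genes, 12 had a positive difference and the median was -0.004, with Egr2 at -1.08 ± 0.45 and Klf4 at 2.26 ± 0.96. Of 29 interferon response genes, 10 had a positive difference, with a median of -0.37, and Ifit3 and Isg15 had differences of 1.61 and -0.99. Of 20 Notch signalling genes, 6 had a positive difference, with a median of -0.26, and Hey1, a Notch target, had -2.78 ± 1.04. Of 20 imprinted genes, 11 had a positive difference, with a median of 0.15, and Zdbf2 had ratios of 2.18, 1.62 and 2.08 in HSCs and 0.146, 0.419 and 0.587 in MPPs, a difference of -1.58 ± 0.34. Of 6 sex-linked genes, 3 had a positive difference, with a median of 0.003. Uty, on the Y chromosome, had ratios of 1.42, 0.817 and 1.16 in HSCs and 0.240, -1.57 and -0.016 in MPPs. It alone of the 6 had ranges without overlap. The labels give no sex for any sample.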

How the data were processed

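RNA of each sample was labelled and hybridised to 2-colour arrays with 60-base probes, and the arrays were read with Agilent Feature Extraction, version 8.5.1.1 per the submitters' processing notes and 10.7.3.1 per the file headers. The deposited files hold raw spot intensity values per the file headers, and the authors' deposited table holds their log10 ratio, whose values equal the scanner's on all 6 arrays. Here mean signals were corrected with normexp (offset 50) and normalised by loess within each array in limma 3.58.1 (R 4.3.3). Spots marked non-uniform or as outliers were left out and spots of a probe averaged. Channel levels were quantile normalised on average intensity. The contrast of MPP minus HSC was fitted per probe, with Benjamini-Hochberg adjustment over 44642 probes and a threshold of 0.05. The naming rule took Bmi1, Cdkn2a and Cdkn2b always and, per direction, up to 12 genes with the smallest p, non-overlapping ratios and signals well above background on at least 2 of 3 arrays of each group, 10 genes with all probes at an unadjusted p under 0.05, 8 genes with opposite signs on all arrays, and the members of each of 32 lists with the smallest p. The members and lists were chosen with earlier results of these data known. Foxo1, Cd79b, Dntt, Rag2 and Igkc were named after their values were seen. Some genes that the naming rule selects are not reported here. The labels number the replicates without saying what a number shares, so the samples were not treated as paired. Deviations of same-numbered arrays from their group means correlated at -0.066, 0.001 and 0.006. These values cannot exclude a pairing, since the ratios of replicate arrays hardly correlated either. Probe positions are those of mm9. Whether a probe lies in a coding exon or a UTR was not looked up. The fit was tested on simulated data. Alternatives were another centring, background correction, filter, probe summary, variance model, block and the leaving out of arrays.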

Additional observations from a re-analysis of the deposited data

Results flagged for a closer look

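The KO/WT ratio had opposite signs on all arrays of the 2 populations for 39 of the genes named in the text, which is what singled them out. The limma test of the difference itself did not pass for any of them after adjustment, and opposite signs on all arrays were also found for 406 probes (0.909%) and 518 probes (1.16%) of the whole array. Among the genes negative in HSCs and positive in MPPs, log2 differences were 2.79 for the Polycomb gene Pcgf1, 2.01 for the kinase Grk2 and 2.39 for the T cell costimulator Cd28. Folding and proteasome genes had 2.67 for Hyou1, 2.23 for Psmg3 and 1.04 for Psma3. Ribosome and RNA genes had 1.95 for Heatr1, 1.5 for Utp20 and 2.98 for Thumpd1. The mast cell proteases Cma1 and Mcpt2 had 2.79 and 1.59. The others were Tmcc2 at 3.77, Ccdc8 at 4.09, Mtbp at 3.23, Fam20b at 3.06, Atg7 at 2.25, Olfr714 at 3.49 and Olfr50 at 1.72. At other probes Fam20b gave -1.36, Atg7 -0.16, Thumpd1 1.19 and Ccdc8 2.16.

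Among the genes positive in HSCs and negative in MPPs, Phf10 had -2.81 and Hsf2 -3.42. Vesicle and transport genes had -3.10 for Rab3a, -2.75 for Rab31, -2.26 for Scamp1, -2.86 for Klc4, -2.77 for Copg2 and -2.30 for Slc6a13. Receptors and effectors of blood cells had -4.54 for Fzd9, -0.94 for Epor and -3.03 for Ear1. The others were Urgcp at -4.70, Acad12 at -2.17, Asb1 at -3.22, Krtcap2 at -4.11, Rhobtb3 at -2.97, Armc9 at -2.02, Tmem170 at -2.89, Ei24 at -2.39, Nop14 at -1.09 and Psma1 at -0.96. At other probes Klc4 gave -0.93, Acad12 -1.20, Urgcp -0.72, Asb1 -1.09, Scamp1 -0.036, Armc9 0.50 and Rhobtb3 1.22.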

How the results depend on the processing

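The count of probes with an adjusted p under 0.05 was 0 in limma under all 19 alternatives, and the smallest adjusted p of a gene named here was 0.393. The count with an unadjusted p under 0.05 was 514 with slide row as a block, 462 with the first slide row alone (an alternative added after seeing the data), 1177 with 1 probe per gene, 1230 with the mean over probes, which test fewer features, and from 1174 to 3781 without 1 array at a time, with 3781 without HSC 1, 1174 without MPP 2 and 1190 without MPP 3. The B lineage count was 4 with slide row as a block, 3 with the first row alone, 6 with all 12 channels well above background, 9 with the replicate number as a block and from 7 to 12 without 1 array at a time. Pou2af1 turned to -0.235 with slide row as a block and with the first row alone. Cdkn2b, at -0.161 without a measured HSC signal in WT cells, turned to 0.0821 with median centring, 0.876 with the deposited log ratio and from -0.713 to 0.884 without 1 array at a time. Fam20b was -1.36 and Rhobtb3 1.22 with 1 probe per gene, since another probe then stands for them. For the same reason Klc4 moved from -2.86 to -0.93, Cinp from -3.02 to -0.62, Acad12 from -2.17 to -1.20, Bcat1 from 2.14 to 1.08 and Ccdc8 from 4.09 to 2.16. The cause of the other moves was not tested. The replicate block left 0 probes past the adjusted threshold. Of 103 named genes, 99 kept their sign under all alternatives. The median over all probes of the difference was 0.002, -0.034 with median centring and 0.063 with the deposited log ratio. Precision is limited by 3 arrays per population.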
